A study of Homo sapiens with 12 samples.

Results

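The genes described here copy the genome and supply its building blocks: 49 human genes for DNA replication and nucleotide synthesis, taken by name from the 60649 gene rows of each of 2 deposited count tables. All 49 matched a row in both tables, and all 49 had enough counts to be tested in both experiments. RNA came from xenograft tumours of Cal33, an established head and neck squamous cell carcinoma line grown in a host animal, and was selected by poly-T beads before paired-end sequencing. TEAD proteins bind DNA and carry the co-activators YAP and TAZ to growth genes, and the series asks what blocking that partnership does to these tumours. In the first experiment, 3 tumours that received SW-682, a small molecule TEAD inhibitor (group smTEADi), were set against 3 tumours that received Vehicle. In the second, 3 tumours labelled pTEADi (DOX+), an inhibitor of TEAD switched on with doxycycline, were set against 3 tumours labelled Control (DOX-). By these labels doxycycline and the inhibitor came together, so what each did to these tumours cannot be told apart. All 4 groups share the Cal33 background, which is 1 cell line, so nothing here shows how another tumour would respond. Doses, treatment times and whether the 3 tumours of a group grew in separate animals are not given in the sources used here, so p-values measure only the spread between these samples. Library totals ran from 13576494 to 15433679 expected counts. The 10 squamous markers checked, such as KRT5 and TP63, had at least 10 counts in each of the 12 libraries. This is detection only, and not all of them held a steady level. By the test given below, EPCAM was lower with SW-682 (log2 fold change -1.10) and with pTEADi (-1.15). With pTEADi KRT17 was lower too (-1.31), and DSG3 (0.32) and PERP (0.46) were higher.

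A human cell copies its DNA in ordered steps. In G1 the origin recognition complex, CDC6 and CDT1 load the MCM2 to MCM7 helicase on origins, which is called licensing. At the start of S phase MCM10, CDC45, the GINS complex and TICRR turn the loaded helicase into a working one, which is called firing. Polymerases alpha, delta and epsilon then copy the strands with the sliding clamp PCNA and its loader RFC, ribonucleotide reductase and the thymidylate enzymes supply deoxynucleotides, and histone chaperones and methylation copying factors rebuild chromatin behind the fork. Many of these genes are switched on at the border of G1 and S by E2F factors, which the RB family holds back, and their RNA is used as a sign of proliferating cells.

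RNA of the replication genes was lower in tumours with either inhibitor, at each of the 6 steps. With SW-682, 26 of the 49 members fell and none rose, at a Benjamini-Hochberg adjusted p of 0.05 over all genes in edgeR's quasi-likelihood test. Of all 14829 genes tested in that experiment, 3.48% fell and 2.02% rose by the same rule. The members' median log2 fold change was -0.99, against 0.01 for all genes tested, and single members ran from -1.60 for MCM10 to -0.23 for UNG. All 49 had a log2 fold change below 0, against 48.9% of all genes tested, and all 49 were lower at an unadjusted p of 0.05, against 14%. In 45 of the 49 every smTEADi library lay under every Vehicle library, a pattern that 17.3% of all genes tested showed. In a bulk tumour sample, fewer cells in S phase and less of these RNAs in each cell cannot be told apart.

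Summed over the 49 genes, the level was 746, 1244 and 1187 CPM in smTEADi tumours, against 2033, 1656 and 2289 CPM in Vehicle tumours. CPM here are counts scaled to library size with TMM over all 12 libraries. The sums did not overlap, but they spread more widely than those of the second experiment. The library smTEADi 1 held the lowest value of its group in 48 of 49 members, and Vehicle 2 in 46 of 49. The count of members that fell moved with single libraries. It was 20 without smTEADi 1, 12 without smTEADi 2, 37 without Vehicle 2, and 0 without any 1 of smTEADi 3, Vehicle 1 or Vehicle 3, while all 49 log2 fold changes stayed below 0 each time. Without smTEADi 1 and Vehicle 2 together, an alternative chosen after seeing the data, 43 members fell. The smallest adjusted p of any gene in this experiment was 0.0365.

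With pTEADi, 45 of the 49 members fell and none rose, where 13.6% of all 14705 genes tested fell and 12.7% rose. Their median log2 fold change was -0.84, against -0.0007 for all genes tested, with members from -1.69 for CDCA7 to -0.15 for GINS3. The 4 that did not pass the test were RRM1, UNG, GINS3 and POLE2, each also with a log2 fold change below 0. All 49 were thus below 0, against 50.1% of all genes tested, and 47 were lower at an unadjusted p of 0.05, against 19.6%. In 47 of 49 the pTEADi libraries all lay under the Control libraries, against 21.7% of all genes tested. Summed levels were 1573, 1444 and 1597 CPM in pTEADi tumours, against 2712, 2650 and 2315 CPM in Control tumours. The pTEADi sums stood close together, and each lay well under the lowest Control sum. Leaving out 1 library at a time left between 41 and 46 members fallen.

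The 26 members that fell with SW-682 all fell with pTEADi as well, 19 passed the threshold with pTEADi only, and 4 passed in neither. Whether the effects of the inhibitors differ was tested directly, as the pTEADi effect minus the SW-682 effect in 1 fit of all 12 libraries. By edgeR 0 of 49 members passed, where 2 of 15460 genes did (0.0129%), and DESeq2 and limma-voom also passed 0 members. Only POLA2 had an unadjusted p below 0.05, where 7.13% of all genes did, with a log2 difference of 0.46 (95% interval 0.02 to 0.91, adjusted p = 0.685). A read-through gene that shares 16.8% of the exon bases of POLA2 held 0.99 CPM on average in Vehicle tumours and 0 in the other 3 groups. Its highest count in any library was 43.24, which by itself gives that mean, so a single Vehicle library held all of its counts. For the other 48 the 95% interval included 0. Over the 49 members the interval reached 0.27 to 1.10 to either side of the estimate, with a median of 0.63. In each member, differences smaller than its own reach could not be told from 0 at this precision. The log2 fold change was the more negative with SW-682 in 44 members and with pTEADi in 5, where pTEADi had the lower value in 48.3% of all genes tested, but without smTEADi 1 it was the more negative with pTEADi in 29 of 49. The SE was larger with SW-682 in 48 members, with a median of 0.24 for SW-682 and 0.13 for pTEADi.

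**Figure D1:**
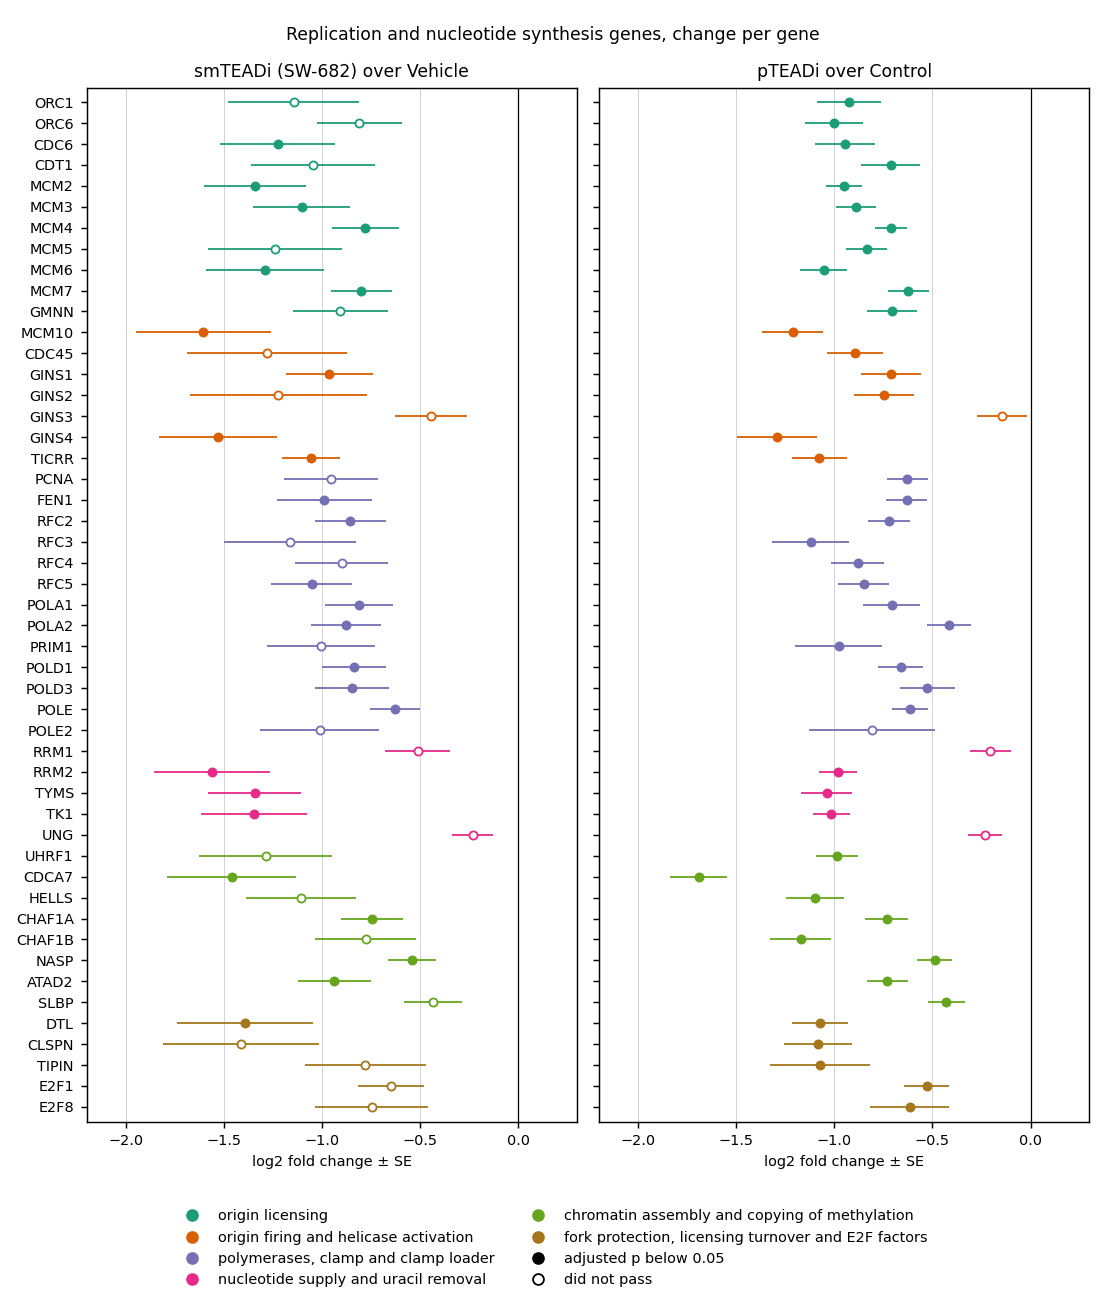
Log2 fold change ± SE of each of the 49 members, SW-682 (smTEADi over Vehicle, left) and pTEADi (over Control, right), coloured by step. All points lie under 0, filled points (26 on the left and 45 on the right) have an adjusted p below 0.05, and error bars are wider on the left in 48 of 49 genes.

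The DNA before the members' start sites was read for words that cell cycle factors are known to bind. Many genes of this list are known to be switched on by E2F factors. A high share of E2F words can thus follow from the choice of members and says nothing of their fall. RefSeq promoter windows (GRCh38.p14, 300 bases, 250 before the start and 50 after it) were found for 43 of the 49 members, 57 windows in all because some genes have several starts. MCM4, MCM5, GINS4, POLD3, ATAD2 and E2F8 had no window. The stretches below, 80 bases each, all lie before a RefSeq start site, overlap no exon of Gencode 44 and are written 5′ to 3′ on the gene's strand. They show 1 member for each step, and MCM6 as the member with the most E2F words. Capitals mark E2F words and the CCAAT box or its reverse complement, where neighbouring words can overlap.
CDT1, chr16:88803709-88803788, plus strand: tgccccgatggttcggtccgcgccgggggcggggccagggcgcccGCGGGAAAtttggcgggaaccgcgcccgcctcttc
MCM6, chr2:135876516-135876595, minus strand: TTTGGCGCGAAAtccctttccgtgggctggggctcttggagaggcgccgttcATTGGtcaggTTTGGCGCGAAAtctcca
MCM10, chr10:13161440-13161519, plus strand: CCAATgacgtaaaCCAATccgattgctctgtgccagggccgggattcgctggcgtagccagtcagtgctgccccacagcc
PCNA, chr20:5126627-5126706, minus strand: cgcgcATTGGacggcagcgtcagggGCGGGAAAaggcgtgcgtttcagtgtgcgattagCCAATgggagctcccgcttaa
UNG, chr12:109098038-109098117, plus strand: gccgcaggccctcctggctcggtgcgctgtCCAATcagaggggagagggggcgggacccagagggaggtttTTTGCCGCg
CDCA7, chr2:173354740-173354819, plus strand: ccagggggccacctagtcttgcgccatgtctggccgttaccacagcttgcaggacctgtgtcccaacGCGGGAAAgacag
E2F1, chr20:33686386-33686465, minus strand: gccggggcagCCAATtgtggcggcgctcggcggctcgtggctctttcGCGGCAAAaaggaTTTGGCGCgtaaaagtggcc
The stretch of UNG lies inside the span of its longest gene model, between exons, and the other 6 lie before the first exon of their gene. MCM6, a helicase subunit, shows 2 pairs of overlapping E2F words with a CCAAT box between them, while the stretch of MCM10, which helps to activate the helicase, shows 2 CCAAT boxes and no E2F word.

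Words were searched on both strands. The E2F words TTTCCCGC, TTTCGCGC, TTTGCCGC and TTTGGCGC, of which some overlap on opposite strands, were found in 26 of the 57 member windows (45.6%), against 910 of 22199 windows of protein-coding genes (4.1%) and 2 of 14 windows of mitotic genes (14.3%). Counted by gene, 25 of 43 members held at least 1 E2F word (58.1%), against 5.4% of protein-coding genes. CCAAT, the box read by NF-Y, was in 64.9% of member windows, against 34.7% of protein-coding windows and 14 of 14 mitotic windows. TTTGAA, the CHR box of mitotic genes, was in 2 of 57 member windows (3.51%), against 12.4% of protein-coding windows and 10 of 14 mitotic windows (71.4%). GGAATG, a core of the TEAD site, was in 8 of 57 member windows (14%), against 12.2% of protein-coding windows. Median GC content was 65.7% in member windows and 62.3% in protein-coding windows, and its part in these shares was not tested. By step, E2F words were in windows of 7 of 9 licensing genes, 3 of 6 firing genes, 6 of 12 polymerase genes, 2 of 5 nucleotide genes, 3 of 7 chromatin genes and 4 of 4 genes of the last group.

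Genes that fell were found among members with an E2F word and among those without. With SW-682, 12 of 25 members with a word and 10 of 18 without one fell, with median log2 fold changes of -1.05 and -0.94. With pTEADi, 22 of 25 with a word and 17 of 18 without one fell, with medians of -0.81 and -0.89. A word is a match of letters, and no binding was measured.

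**Figure D2:**
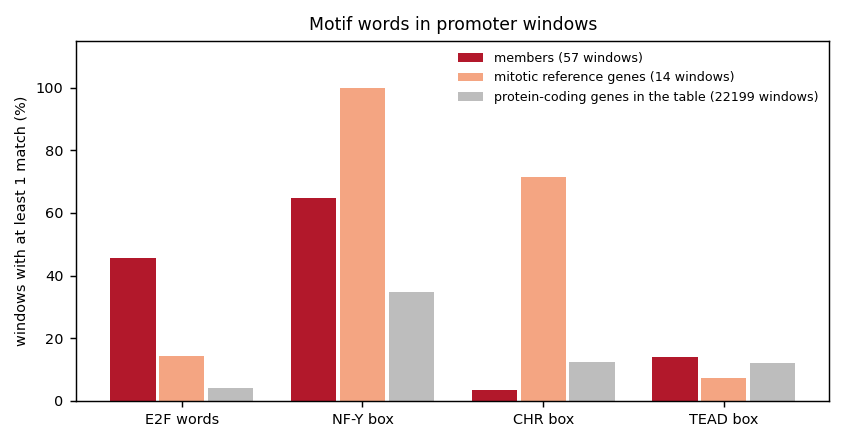
Share of promoter windows (%) with at least 1 match to E2F words, the NF-Y box, the CHR box and a TEAD core, for the members (57 windows), 15 mitotic genes (14 windows) and protein-coding genes (22199 windows). E2F words are in 45.6% of member windows against 4.1% of protein-coding windows, and the TEAD core in 14% against 12.2%.

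Origin licensing had 11 members, the genes that mark origins and load the helicase on them. With SW-682, 6 fell and the median log2 fold change was -1.10, and with pTEADi 11 of 11 fell with a median of -0.89. Their summed level was 340 ± 98.9 CPM in smTEADi tumours and 682 ± 119 CPM in Vehicle tumours, and it was 554 ± 23.6 CPM in pTEADi tumours and 959 ± 92.8 CPM in Control tumours (SD, n = 3 each). MCM2, a subunit of the helicase ring, had 20.1, 43.96 and 42.9 CPM in smTEADi tumours, against 87.6, 76.5 and 108 CPM in Vehicle tumours. Each smTEADi value lay under each Vehicle value, with smTEADi 1 at less than the level of either other smTEADi library (log2 fold change -1.34 ± 0.26, adjusted p = 0.0371). In the second experiment MCM2 had 73.9, 63.9 and 73.4 CPM in pTEADi tumours, against 137, 144 and 127 CPM in Control tumours, again without overlap (-0.95 ± 0.09, adjusted p = 4.49e-05).

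MCM7 was the helicase subunit with the highest level per length, at 51.1 CPM per kb of its MANE Select transcript over all 12 libraries. It had 56.2, 74.0 and 77.2 CPM in smTEADi tumours, against 116, 103 and 142 CPM in Vehicle tumours. The groups did not overlap (-0.80 ± 0.16, adjusted p = 0.0369). With the second inhibitor it had 132, 121 and 119 CPM in pTEADi tumours, against 206, 204 and 162 CPM in Control tumours, and it fell there too (-0.62 ± 0.10, adjusted p = 0.00110). MCM4 had 76.7, 115 and 115 CPM in smTEADi tumours, against 182, 147 and 196 CPM in Vehicle tumours, and 131, 132 and 137 CPM in pTEADi tumours, against 229.7, 215 and 209 CPM in Control tumours. It fell in both, with log2 fold changes of -0.78 ± 0.17 (adjusted p = 0.0405) and -0.71 ± 0.08 (adjusted p = 0.000120).

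MCM3 (-1.10 ± 0.25 with SW-682 and -0.89 ± 0.10 with pTEADi) and MCM6 (-1.29 ± 0.30 and -1.05 ± 0.12) also fell in both experiments. MCM5 fell with pTEADi (-0.84 ± 0.11), and with SW-682 its log2 fold change was -1.24 ± 0.34 (adjusted p = 0.0602). All 6 ring subunits thus had negative values in both experiments, although the ring holds them in equal number and their RNAs did not stand level. MCM7 had 5.88 times the level per kb of MCM6 in smTEADi tumours and 4.17 times in Vehicle tumours, 8.2 times in pTEADi tumours and 6.08 times in Control tumours. MCM6 was the lowest of the 6 in each group.

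CDT1, which brings the helicase to the origin, had 5.08, 12.7 and 11.99 CPM in smTEADi tumours, against 19.5, 15.8 and 26.4 CPM in Vehicle tumours. The groups did not overlap, but the change did not pass the test (-1.05 ± 0.31, adjusted p = 0.0739). Under pTEADi it had 26.0, 23.4 and 21.9 CPM in pTEADi tumours, against 41.3, 46.0 and 29.5 CPM in Control tumours, and it fell (-0.71 ± 0.15, adjusted p = 0.00476), a call lost in 1 fit of all 12 libraries (adjusted p = 0.0647). GMNN, the inhibitor that binds CDT1 after licensing, had log2 fold changes of -0.91 ± 0.24 with SW-682 (adjusted p = 0.0561) and -0.71 ± 0.13 with pTEADi (adjusted p = 0.00200). CDC6, the loader's partner ATPase, fell in both (-1.23 ± 0.29 and -0.94 ± 0.15). ORC1 (-1.14 ± 0.33 and -0.92 ± 0.16) and ORC6 (-0.81 ± 0.22 and -1.002 ± 0.15), subunits of the origin recognition complex, fell with pTEADi, and with SW-682 their adjusted p values were 0.0691 and 0.0569.

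Origin firing held MCM10, the member with the most negative change with SW-682. Of its 7 members 4 fell with SW-682 (median log2 fold change -1.22) and 6 with pTEADi (median -0.89). This activator of the helicase had 2.14, 6.31 and 4.83 CPM in smTEADi tumours, against 16.5, 9.56 and 14.5 CPM in Vehicle tumours. The highest smTEADi value lay under the lowest Vehicle value (-1.60 ± 0.34, adjusted p = 0.0397). In the doxycycline experiment MCM10 had 5.50, 6.22 and 7.07 CPM in pTEADi tumours, against 16.1, 14.6 and 13.0 CPM in Control tumours, each under all Control values (-1.21 ± 0.16, adjusted p = 0.000278). GINS4, the member with the lowest level per length (1.08 CPM per kb), had 1.69, 1.41 and 2.03 CPM in smTEADi tumours, against 5.22, 3.41 and 6.40 CPM in Vehicle tumours. Its change was as steep (-1.53 ± 0.30, adjusted p = 0.0371), and with pTEADi it was -1.29 ± 0.20 (adjusted p = 0.000880).

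TICRR, also called treslin, which loads CDC45 on licensed origins, had the smallest p of all members with SW-682. Its values were 8.02, 9.66 and 10.2 CPM in smTEADi tumours, against 19.5, 17.6 and 21.1 CPM in Vehicle tumours, tight in both groups (-1.06 ± 0.15, adjusted p = 0.0365). With pTEADi it had 11.6, 14.1 and 15.5 CPM in pTEADi tumours, against 30.6, 31.5 and 24.8 CPM in Control tumours, and it fell there too (-1.08 ± 0.14, adjusted p = 0.000276). GINS1 fell in both experiments (-0.96 ± 0.22 and -0.71 ± 0.16). GINS2 (-1.22 ± 0.45 and -0.75 ± 0.15) and CDC45 (-1.28 ± 0.41 and -0.89 ± 0.14), which completes the active helicase, fell with pTEADi only by the threshold, and their SE with SW-682 were the largest of the 49 at 0.45 and 0.41. In smTEADi 1 CDC45 stood at 2.06 CPM, against 8.80 and 8.37 CPM in the other smTEADi libraries.

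GINS3 was the exception among the firing genes, though it is a subunit of the same complex as GINS1, GINS2 and GINS4. It had 8.56, 8.80 and 12.2 CPM in smTEADi tumours, against 15.6, 11.9 and 12.7 CPM in Vehicle tumours. The groups overlapped (-0.44 ± 0.18, adjusted p = 0.155). Under pTEADi it had 12.1, 12.3 and 11.1 CPM in pTEADi tumours, against 13.6, 12.4 and 13.3 CPM in Control tumours, values just apart that did not pass the test (-0.15 ± 0.13, adjusted p = 0.448). GINS3 shares 10.9% of its annotated exon bases with a non-coding gene on the other strand, and reads of both cannot be told apart if the counting ignored strand.

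**Figure D3:**
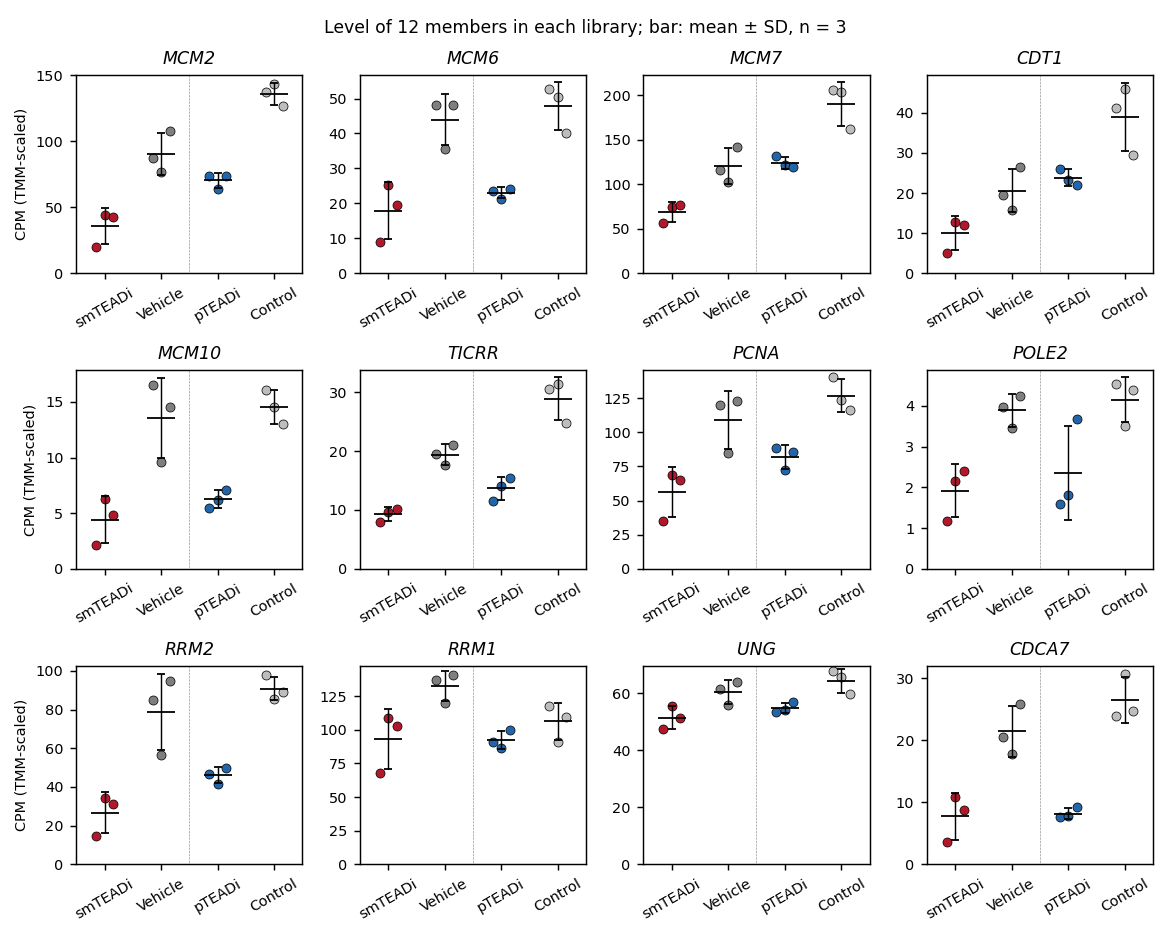
TMM-scaled CPM of 12 members in each library, with the mean and SD of 3 libraries as a bar, smTEADi left of Vehicle and pTEADi left of Control. MCM10 and CDCA7 show wide gaps between groups in both experiments, RRM1 overlaps between pTEADi and Control, and the leftmost smTEADi point (library 1) is the lowest of its group in each panel.

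Polymerases, clamp and clamp loader made up the largest group, with 13 members, of which 8 fell with SW-682 (median log2 fold change -0.90) and 12 with pTEADi (median -0.71). PCNA, the sliding clamp, had the highest level per length of all members at 73.4 CPM per kb. It had 35.1, 68.8 and 65.0 CPM in smTEADi tumours, against 120.1, 84.8 and 123 CPM in Vehicle tumours. The groups did not overlap, and the change missed the threshold (-0.96 ± 0.24, adjusted p = 0.0510). With pTEADi it had 88.9, 72.3 and 85.4 CPM in pTEADi tumours, against 140.4, 123 and 117 CPM in Control tumours, and it fell (-0.63 ± 0.10, adjusted p = 0.00108). FEN1, which trims the flaps of lagging-strand fragments, fell in both (-0.99 ± 0.24 and -0.63 ± 0.10).

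POLD1, the catalytic subunit of polymerase delta, had 16.7, 25.02 and 26.0 CPM in smTEADi tumours, against 38.7, 38.8 and 43.8 CPM in Vehicle tumours. All smTEADi values lay well under the Vehicle values (-0.84 ± 0.16, adjusted p = 0.0371). In the other pair of groups it had 55.8, 48.4 and 50.9 CPM in pTEADi tumours, against 84.7, 92.3 and 67.9 CPM in Control tumours, likewise apart (-0.66 ± 0.11, adjusted p = 0.00150). POLE, the catalytic subunit of polymerase epsilon, had 38.5, 48.7 and 49.2 CPM in smTEADi tumours, against 65.1, 66.8 and 79.2 CPM in Vehicle tumours, with a smaller change (-0.63 ± 0.13, adjusted p = 0.0383). With pTEADi its level was 76.0 ± 4.98 CPM, against 116 ± 9.80 CPM in Control tumours (SD, n = 3 each), and it fell (-0.61 ± 0.09, adjusted p = 0.000616). POLE2, an accessory subunit of epsilon with few counts, had 1.18, 2.17 and 2.41 CPM in smTEADi tumours, against 3.98, 3.45 and 4.25 CPM in Vehicle tumours. It did not pass (-1.01 ± 0.30, adjusted p = 0.0739), nor did it with pTEADi, where the library pTEADi 3 at 3.67 CPM overlapped the lowest Control library at 3.51 CPM (-0.81 ± 0.32, adjusted p = 0.0845). Without pTEADi 3 its log2 fold change was -1.28 (adjusted p = 0.0166), and it also passed with no low-count filter (-0.81, adjusted p = 0.0262).

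The clamp loader and the primase complex completed the step. RFC5 had 5.89, 10.4 and 9.15 CPM in smTEADi tumours, against 19.0, 15.5 and 18.5 CPM in Vehicle tumours, and fell (-1.05 ± 0.21, adjusted p = 0.0371). RFC2 had 20.2, 18.8 and 22.1 CPM in pTEADi tumours, against 34.9, 34.6 and 31.3 CPM in Control tumours, and fell (-0.72 ± 0.11, adjusted p = 0.000582). Both fell in the other experiment too, with log2 fold changes of -0.85 ± 0.13 for RFC5 with pTEADi and -0.86 ± 0.18 for RFC2 with SW-682. RFC3 (-1.16 ± 0.34 with SW-682 and -1.12 ± 0.20 with pTEADi) and RFC4 (-0.90 ± 0.24 and -0.88 ± 0.13) fell with pTEADi, while their adjusted p with SW-682 were 0.0672 and 0.0543. POLA1 (-0.81 ± 0.17 and -0.71 ± 0.14) and POLA2 (-0.88 ± 0.18 and -0.42 ± 0.11), subunits of polymerase alpha, fell in both, as did POLD3 (-0.85 ± 0.19 and -0.53 ± 0.14). PRIM1, the catalytic primase subunit, fell with pTEADi (-0.98 ± 0.22) and had a log2 fold change of -1.01 ± 0.27 with SW-682 (adjusted p = 0.0594).

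Nucleotide supply split into genes with steep changes and genes with shallow ones. Of 5 members, 3 fell in both experiments, with a median over the 5 of -1.34 with SW-682 and -0.98 with pTEADi. RRM2, the small subunit of ribonucleotide reductase whose supply limits deoxynucleotide synthesis in S phase, had 14.4, 34.2 and 31.4 CPM in smTEADi tumours, against 85.1, 56.5 and 94.6 CPM in Vehicle tumours. No smTEADi value came near the Vehicle values (-1.56 ± 0.30, adjusted p = 0.0365). Under pTEADi RRM2 had 47.0, 41.6 and 49.7 CPM in pTEADi tumours, against 97.7, 85.7 and 89.3 CPM in Control tumours (-0.98 ± 0.10, adjusted p = 5.18e-05). RRM1, the large subunit, had 67.5, 109 and 103 CPM in smTEADi tumours, against 137, 120.0 and 141 CPM in Vehicle tumours. These did not overlap and did not pass (-0.51 ± 0.17, adjusted p = 0.0908). With pTEADi RRM1 had 91.1, 86.1 and 99.6 CPM in pTEADi tumours, against 118, 91.2 and 109.7 CPM in Control tumours, and the groups overlapped (-0.20 ± 0.11, adjusted p = 0.178). Without Control 2 the RRM1 change passed (-0.30, adjusted p = 0.0289).

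TYMS, thymidylate synthase, which makes thymidylate from deoxyuridylate, had 8.77, 17.3 and 15.96 CPM in smTEADi tumours, against 35.3, 29.4 and 42.1 CPM in Vehicle tumours. It fell (-1.34 ± 0.24, adjusted p = 0.0365), and it fell with pTEADi to 21.7 ± 3.72 CPM, against 44.6 ± 4.20 CPM in Control tumours (-1.04 ± 0.13, adjusted p = 0.000222). TYMS shares 39.9% of its exon bases with ENOSF1 on the other strand, whose log2 fold changes were -0.02 ± 0.09 with SW-682 (adjusted p = 0.916) and -0.10 ± 0.09 with pTEADi (adjusted p = 0.475). Among the other members, MCM2 shares 23.6% and GINS4 21% of exon bases with non-coding genes on the other strand, which had at most 28.2 and 14.2 counts in any library. TIPIN shares 21.1% with RPL9P25, a processed pseudogene on its own strand, which had at most 5 counts in any library. TK1, thymidine kinase of the salvage pathway, had 17.4, 41.4 and 38.4 CPM in smTEADi tumours, against 75.2, 75.0 and 97.3 CPM in Vehicle tumours, and 79.1, 71.5 and 76.4 CPM in pTEADi tumours, against 153, 168 and 138 CPM in Control tumours. Its groups stood apart in both experiments (-1.35 ± 0.27 with adjusted p = 0.0383, and -1.02 ± 0.09 with adjusted p = 3.88e-05). UNG, which cuts uracil out of DNA, had 47.3, 55.4 and 51.3 CPM in smTEADi tumours, against 61.3, 55.8 and 63.9 CPM in Vehicle tumours. It had the smallest change of the 49 with SW-682 (-0.23 ± 0.10, adjusted p = 0.175), and with pTEADi the value was -0.23 ± 0.09 (adjusted p = 0.0697). Without Control 3 the UNG change with pTEADi passed (-0.28, adjusted p = 0.0355).

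Chromatin assembly and the copying of DNA methylation had 8 members, of which 4 fell with SW-682 (median log2 fold change -0.86) and 8 with pTEADi (median -0.86). CDCA7, which guides the remodeller HELLS to chromatin for the upkeep of DNA methylation, had 3.53, 10.9 and 8.80 CPM in smTEADi tumours, against 20.5, 17.9 and 25.9 CPM in Vehicle tumours. It fell (-1.46 ± 0.33, adjusted p = 0.0421). With pTEADi it had 7.60, 7.74 and 9.21 CPM in pTEADi tumours, against 23.9, 30.7 and 24.7 CPM in Control tumours, the steepest change of any member there (-1.69 ± 0.14, adjusted p = 2.62e-05). HELLS fell with pTEADi (-1.10 ± 0.15) and did not pass with SW-682 (-1.11 ± 0.28, adjusted p = 0.0521). UHRF1, which reads hemimethylated DNA behind the fork, had 9.63, 29.4 and 28.1 CPM in smTEADi tumours, against 52.8, 44.8 and 66.6 CPM in Vehicle tumours. The gap was wide but smTEADi 1 lay far under the other libraries of its group, and the change did not pass (-1.29 ± 0.34, adjusted p = 0.0547). Under pTEADi UHRF1 stood at 39.5 ± 4.69 CPM, against 78.1 ± 6.14 CPM in Control tumours, and it fell (-0.99 ± 0.11, adjusted p = 9.28e-05).

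ATAD2, a chromatin ATPase with a bromodomain, had 26.9, 39.2 and 38.2 CPM in smTEADi tumours, against 73.7, 50.4 and 76.1 CPM in Vehicle tumours. It fell in both experiments (-0.94 ± 0.19 with adjusted p = 0.0371, and -0.73 ± 0.10 with adjusted p = 0.000479). CHAF1A, the large subunit of the histone chaperone CAF-1, fell in both (-0.74 ± 0.16 and -0.73 ± 0.11). CHAF1B, its partner subunit, fell with pTEADi (-1.17 ± 0.16) and did not pass with SW-682 (-0.78 ± 0.26, adjusted p = 0.0938). NASP, a carrier of free histones, fell in both (-0.54 ± 0.12 and -0.49 ± 0.09). SLBP, which binds the stem-loop of histone messages, had 36.4, 49.2 and 41.1 CPM in smTEADi tumours, against 60.1, 47.3 and 63.9 CPM in Vehicle tumours, and smTEADi 2 overlapped Vehicle 2 (-0.44 ± 0.15, adjusted p = 0.0979). With pTEADi SLBP fell (-0.43 ± 0.09, adjusted p = 0.00589).

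The last group held genes of fork protection, licensing turnover and the E2F factors, and 1 of its 5 members fell with SW-682 while 5 of 5 fell with pTEADi. DTL, the receptor of the ubiquitin ligase that removes CDT1 in S phase, was that member, with 3.02, 9.92 and 8.09 CPM in smTEADi tumours, against 20.02, 14.3 and 21.2 CPM in Vehicle tumours (-1.39 ± 0.35, adjusted p = 0.0499). This call was lost with RLE scaling (adjusted p = 0.0505), upper-quartile scaling (0.0520), the replicate number as a block (0.0964) and without any 1 of smTEADi 2, smTEADi 3, Vehicle 1 or Vehicle 3 (0.0513 to 0.209). With pTEADi DTL had 7.30, 7.95 and 9.08 CPM in pTEADi tumours, against 17.2, 18.2 and 15.8 CPM in Control tumours, and no values crossed (-1.07 ± 0.14, adjusted p = 0.000293). E2F1, an activating E2F factor, had 15.9, 20.9 and 24.3 CPM in smTEADi tumours, against 28.1, 31.4 and 36.2 CPM in Vehicle tumours. Its groups did not overlap and the change missed the threshold (-0.65 ± 0.17, adjusted p = 0.0535), while with pTEADi it fell (-0.53 ± 0.12, adjusted p = 0.00577). E2F8, a repressing E2F factor, was -0.75 ± 0.29 with SW-682 (adjusted p = 0.133) and -0.62 ± 0.20 with pTEADi (adjusted p = 0.0424). The pTEADi call of E2F8 was lost without pTEADi 1, pTEADi 2, Control 1 or Control 2 (adjusted p from 0.0711 to 0.146), by DESeq2 (0.0715), in 1 fit of all 12 libraries (0.103) and with the replicate number as a block (0.0718). CLSPN, the fork adaptor claspin, had log2 fold changes of -1.41 ± 0.40 (adjusted p = 0.0629) and -1.08 ± 0.17 (adjusted p = 0.000880). TIPIN, partner of TIMELESS in fork protection, had -0.78 ± 0.31 (adjusted p = 0.141) and -1.07 ± 0.26 (adjusted p = 0.00927), and the pTEADi call was lost without Control 1 (adjusted p = 0.0567).

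In several replication complexes some members were lower relative to other subunits in tumours with either inhibitor. Of these other subunits, GINS3 and RRM1 are members themselves. Polymerase alpha-primase was given no ratio, and its subunit PRIM2, outside the members, moved as they did. PRIM2 had log2 fold changes of -0.90 ± 0.24 with SW-682 (adjusted p = 0.0542) and -0.58 ± 0.15 with pTEADi (adjusted p = 0.0135). The ratios that follow were chosen after the values had been seen and carry no test. They are ratios of CPM not divided by length, so only their difference between groups can be read. On the log2 scale, the mean of ORC1 and ORC6 over that of ORC2 to ORC5 was lower by 0.77 in smTEADi than in Vehicle tumours (means -1.14 and -0.37), and by 0.83 in pTEADi than in Control tumours (-0.55 and 0.28). GINS1, GINS2 and GINS4 over GINS3 gave -0.84 in smTEADi and -0.07 in Vehicle tumours, and -0.43 in pTEADi and 0.28 in Control tumours. RFC2 to RFC5 over RFC1, the large subunit of the loader, gave -2.18 in smTEADi and -1.33 in Vehicle tumours, and -1.48 in pTEADi and -0.81 in Control tumours. These ratios moved the same way in both experiments, with no library of an inhibitor group overlapping its controls.

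The same held for both large polymerases and for ribonucleotide reductase. POLD1 and POLD3 over POLD2 and POLD4 gave -2.47 in smTEADi and -1.47 in Vehicle tumours, and -2.15 in pTEADi and -1.48 in Control tumours. POLE and POLE2 over POLE3 and POLE4 gave -1.31 in smTEADi and -0.94 in Vehicle tumours, and -1.44 in pTEADi and -0.78 in Control tumours. RRM2 over RRM1 gave -1.85 in smTEADi and -0.78 in Vehicle tumours, and -0.995 in pTEADi and -0.217 in Control tumours. RRM2 over RRM2B, the small subunit induced by p53, gave -0.64 in smTEADi and 1.15 in Vehicle tumours, and 0.56 in pTEADi and 1.84 in Control tumours. CDT1 over its inhibitor GMNN was the ratio that overlapped in both experiments, at 0.16 in smTEADi and 0.38 in Vehicle tumours and at 0.998 in pTEADi and 0.996 in Control tumours.

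**Figure D4:**
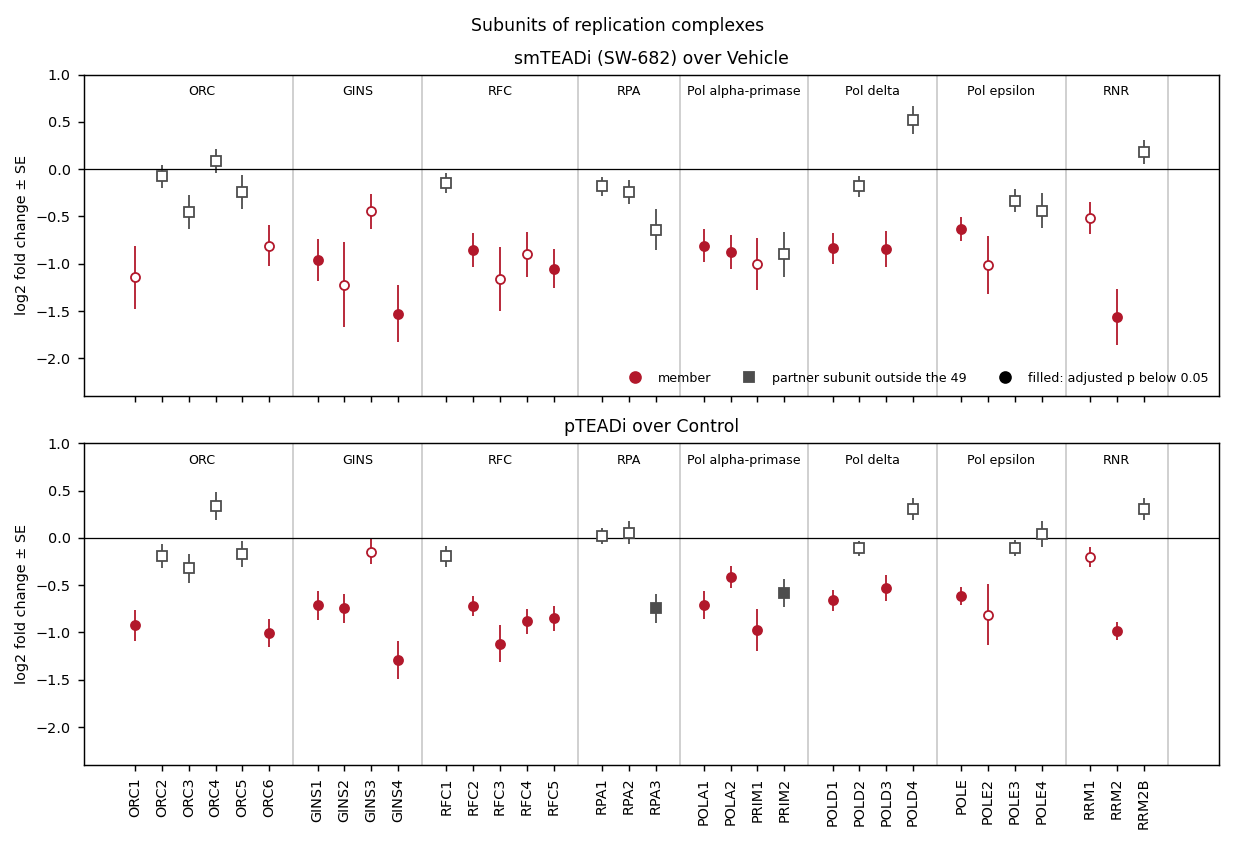
Log2 fold change ± SE of the subunits of 8 replication complexes, SW-682 above and pTEADi below, members as red circles and partner subunits outside the 49 as grey squares, filled where the adjusted p is below 0.05. ORC4, POLD4 and RRM2B lie above 0 in both panels, beside members that all lie under it. PRIM2 and RPA3, outside the 49, lie under 0 in both panels and are filled in the lower one.

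Other genes of the pathway were taken from lists chosen, like the members, with earlier results known. Of 30 other replication genes 9 fell with SW-682 (median log2 fold change -0.48) and 17 with pTEADi (median -0.48), and none rose. DNMT1, which copies DNA methylation, stood at 56.2 ± 9.18 CPM in smTEADi and 94.2 ± 14.3 CPM in Vehicle tumours (-0.74 ± 0.15, adjusted p = 0.0371), and at 85.8 ± 2.04 CPM in pTEADi and 144 ± 3.49 CPM in Control tumours (-0.75 ± 0.08, adjusted p = 7.49e-05). LIG1, the ligase of lagging-strand fragments (-0.70 ± 0.13 and -0.45 ± 0.10), WDHD1, which ties the helicase to polymerase alpha (-1.13 ± 0.24 and -0.94 ± 0.15), TIMELESS (-0.83 ± 0.16 and -0.67 ± 0.10) and RNASEH2A, the catalytic subunit of RNase H2 (-0.89 ± 0.21 and -0.72 ± 0.11), fell in both experiments. DBF4, the activator of the CDC7 kinase that fires origins, fell with pTEADi (-1.02 ± 0.15) and did not pass with SW-682 (-0.75 ± 0.21, adjusted p = 0.0633). RPA1, which coats single strands, had -0.18 ± 0.10 and 0.02 ± 0.08, and passed in neither. RPA2, of the same complex, did not pass either (-0.24 ± 0.13 and 0.05 ± 0.12). Its subunit RPA3 fell with pTEADi (-0.74 ± 0.15, adjusted p = 0.0044) and did not pass with SW-682 (-0.64 ± 0.22, adjusted p = 0.0978).

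Of 21 other nucleotide synthesis genes 5 fell with SW-682 (median -0.46) and 13 with pTEADi (median -0.43). PAICS, of purine synthesis (-0.82 ± 0.16 and -0.75 ± 0.09), and the mitochondrial folate enzymes SHMT2 (-0.60 ± 0.13 and -0.60 ± 0.12) and MTHFD2 (-0.74 ± 0.17 and -1.35 ± 0.13) fell in both. SAMHD1, which breaks deoxynucleotides down, fell in both as well (-0.83 ± 0.17 and -1.02 ± 0.15). DTYMK, thymidylate kinase, fell with pTEADi (-0.65 ± 0.11) and did not pass with SW-682 (-0.69 ± 0.24, adjusted p = 0.106). Of 17 E2F, RB and G1/S regulators 5 fell with SW-682 (median -0.41) and 7 with pTEADi (median -0.20). CDC25A, the phosphatase that activates CDK2 (-1.77 ± 0.36 and -1.20 ± 0.23), the repressor E2F7 (-1.17 ± 0.21 and -0.82 ± 0.15), CDK2 (-0.84 ± 0.17 and -0.72 ± 0.10) and TFDP1, the partner of E2F factors on DNA (-0.47 ± 0.11 and -0.51 ± 0.08), fell in both. RBL1, a pocket protein of the RB family, fell with pTEADi (-0.78 ± 0.12) and did not pass with SW-682 (-0.84 ± 0.24, adjusted p = 0.0638). No gene of these 3 lists rose in either experiment.

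Genes of mitosis moved with the members. All 15 of a mitotic list, such as MKI67, TOP2A and CCNB1, fell in both experiments, with median log2 fold changes of -1.27 with SW-682 and -1.06 with pTEADi, beside -0.99 and -0.84 for the members. The mitotic genes summed to 283, 521 and 460 CPM in smTEADi tumours, against 1080, 783 and 1244 CPM in Vehicle tumours, and to 660, 563 and 702 CPM in pTEADi tumours, against 1309, 1397 and 1316 CPM in Control tumours. Their lowest libraries in the first experiment were smTEADi 1 and Vehicle 2, as for the members. The members' mean log2 level minus that of the mitotic genes was -0.87, -0.84 and -0.74 in smTEADi tumours, against -1.12, -1.01 and -1.15 in Vehicle tumours, and -0.92, -0.81 and -0.92 in pTEADi tumours, against -1.03, -1.18 and -1.29 in Control tumours. In each experiment the replication genes thus stood higher relative to the mitotic genes in every inhibitor library than in any control library, a comparison chosen after the values were seen and not tested.

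**Figure D5:**
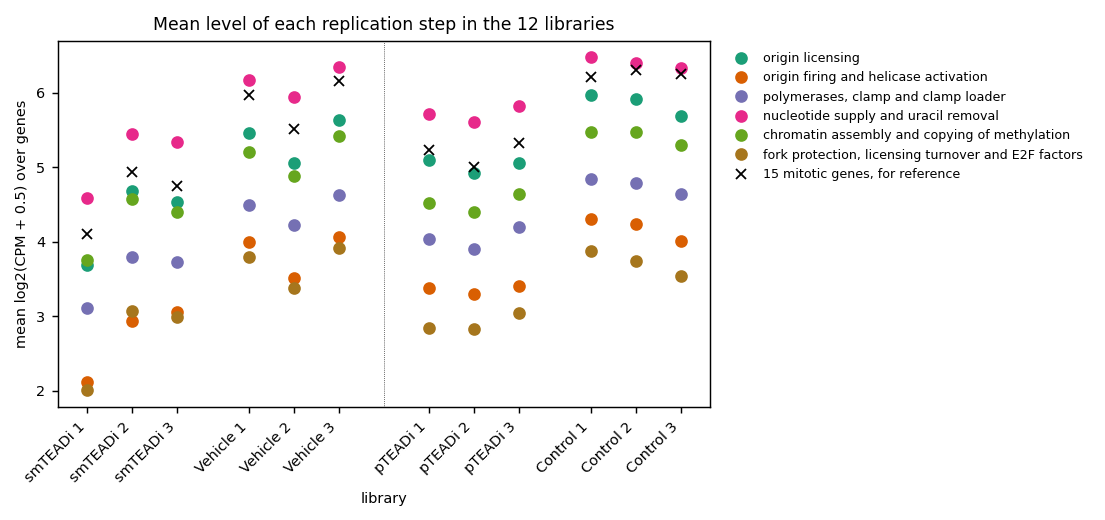
Mean log2(CPM + 0.5) of each of the 6 steps in the 12 libraries, with the 15 mitotic genes as crosses. In each step the inhibitor libraries lie under their own controls, and smTEADi 1 is the lowest of its group throughout.

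Spread within groups was uneven. The median SD of the members' log2 CPM was 0.43 in smTEADi and 0.26 in Vehicle tumours, against 0.18 and 0.16 for all genes tested, and it was 0.13 in pTEADi and 0.15 in Control tumours, against 0.14 and 0.16 for all genes. On the first principal component of the first experiment smTEADi 1 lay at 49.96, apart from 13.7 and 10.3 for the other smTEADi libraries, and Vehicle 2 at -6.81, apart from -30.7 and -36.5 for the other Vehicle libraries. Their part in the results is given above by leaving them out.

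Markers of host cell types were uneven. Of 39 markers 16 had at most 3 counts in any library, among them PTPRC and CD163 of leukocytes, PECAM1 and CDH5 of endothelium, COL3A1 and POSTN of fibroblasts and ADIPOQ and LEP of fat cells, while 11 had over 9 counts in all libraries. COL1A1, a collagen, was the highest of them, at 80.8 to 89.3 CPM in smTEADi and 69.3 to 90.4 CPM in Vehicle tumours, and at 93.7 to 133 CPM in pTEADi and 94.1 to 110.3 CPM in Control tumours. Of 14 markers with enough counts to be tested, MCAM fell with SW-682 (log2 fold change -0.54 ± 0.13, adjusted p = 0.0446) and none rose. Of all genes tested in that experiment, 3.48% fell and 2.02% rose. With pTEADi VWF (1.19 ± 0.19, adjusted p = 0.000862), CFD (0.62 ± 0.12) and PLIN4 (0.87 ± 0.24) rose, and CSF1R (-1.39 ± 0.41), CD74 (-0.59 ± 0.11) and FAP (-0.92 ± 0.25) fell. Thus 3 of 14 rose and 3 of 14 fell, where 12.7% of all genes tested rose and 13.6% fell. Such counts in so few markers are not read as a change of host cells. With SW-682 the log2 fold change of VWF was 1.14 ± 0.30 (adjusted p = 0.0561), that of CSF1R -0.93 ± 0.24 (adjusted p = 0.0542) and that of the fat cell marker FABP4 0.92 ± 0.23 (adjusted p = 0.0518). Summed CPM of the 12 leukocyte markers was 30.8 to 53.5 in smTEADi and 31.3 to 41.1 in Vehicle tumours, and 31.7 to 37.3 in pTEADi and 43.3 to 69.3 in Control tumours. The leukocyte sum rests mostly on CD68 and CD74, while PTPRC, CD163, AIF1, TYROBP, FCER1G and MS4A1 had at most 3 counts in any library. For the 8 fat cell markers it was 45.8 to 77.2 in smTEADi and 39.5 to 43.1 in Vehicle tumours, and 60.9 to 71.2 in pTEADi and 42.4 to 55.9 in Control tumours. The fat cell sum rests almost wholly on FABP4, CFD and PLIN4, with ADIPOQ, LEP, CIDEC and LPL at 0 in all libraries. The 11 fibroblast markers summed to 102 to 111.5 in smTEADi and 93.2 to 116 in Vehicle tumours, and to 118 to 155 in pTEADi and 115 to 137 in Control tumours. The fibroblast sum rests mostly on COL1A1 and COL5A2, with COL3A1 and POSTN at 0 in all libraries. For the 8 endothelial and mural markers the sums were 64.0 to 86.9 in smTEADi and 49.6 to 71.6 in Vehicle tumours, and 80.8 to 92.9 in pTEADi and 58.2 to 69.2 in Control tumours. These last sums rest almost wholly on VWF and MCAM, while PECAM1, CDH5, KDR and TEK had at most 3 counts in any library. The part of host cells in the members' changes was not tested.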

How the data were processed

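RNA was measured in 12 Cal33 xenograft tumour libraries, 3 for each of the labelled groups smTEADi, Vehicle, pTEADi and Control. Per the design text and the submitters' processing notes, the authors aligned paired 150 bp reads to GRCh38 with STAR 2.7.9a and Gencode 38 and made expected counts per gene with RSEM 1.3.1. The deposited expected counts are not scaled between libraries. Strand setting and the handling of reads from the host are not given in the sources used here. Names, positions, exons and transcript lengths (MANE Select) came from Gencode 44, matched by gene ID, and 60463 of 60649 IDs had a symbol.

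The members and all lists were chosen with earlier results of these data known. Counts were rounded and the whole table was tested in R 4.3.3 with edgeR 4.0.16, using filterByExpr at a minimum count of 10, TMM scaling, the two-sided quasi-likelihood F test and Benjamini-Hochberg adjustment over all genes tested, with a threshold of 0.05. Each inhibitor group was set against its controls, and the contrast of both effects was fitted over 12 libraries. The SE is the size of the log2 fold change divided by the square root of F. With 3 libraries a group, an exact permutation test of a single value cannot go below p = 0.1, so none was used. The named genes were, in each step, the 2 with the smallest p in each comparison, the 1 with the largest p in each and the 1 with the highest level per length, and up to 4 per comparison of the other lists. Other members were named so that all 49 are accounted for. Some partner subunits of complexes, such as RPA1 and PRIM2, were named outside this rule. Alternatives were RLE and upper-quartile scaling, other low-count filters, DESeq2 1.42.0, limma-voom (limma 3.58.1), unrounded counts, a threshold of 0.01, 1 fit of all libraries, the replicate number as a block and fits without 1 library at a time. The edgeR tests were also run on simulated counts, in which each gene varied on its own with a spread fitted over all 12 libraries. In the SW-682 experiment whole libraries shifted together, such as smTEADi 1 across the members. The simulation therefore cannot vouch for the count of members that fell there. Library totals of 13576494 to 15433679 expected counts set the counting precision, which on average over genes was finer than the spread between libraries. In members with few counts, such as GINS4 with 21.51 to 28.57 counts in smTEADi tumours, counting noise can be as large as that spread. Within groups no library repeated another, with pairs differing by 7.42 to 34 times the variance of counting noise on average over genes. Pairs across groups were not compared in this way. Reads shared with processed pseudogenes elsewhere in the genome were apportioned by the authors' estimation and were not checked here.

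Promoter windows and printed sequences came from RefSeq (GRCh38.p14), matched by symbol or gene ID.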

Additional observations from a re-analysis of the deposited data

How the results depend on the processing

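With SW-682 the count of members that fell, 26, depended on the settings, while the members' median log2 fold change stayed between -1.11 and -0.76 and was never above 0. The count was 45 without a low-count filter, 40 with DESeq2, 44 in 1 fit of all 12 libraries, 0 at an adjusted p of 0.01 and 49 at an unadjusted p below 0.05. Leaving out 1 library at a time gave 0 to 37, and leaving out smTEADi 1 and Vehicle 2 together gave 43. It was 24 to 31 with RLE or upper-quartile scaling, limma-voom, another minimum count, unrounded counts and protein-coding genes alone. The cause of these shifts was not tested, beyond the fewer samples of the fits that leave libraries out. In those fits a group of 2 is assumed to vary like the other groups.

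With pTEADi the count stayed between 40 and 47 under every alternative run (45 in the main test, and 47 at an unadjusted p below 0.05), and the median log2 fold change between -0.88 and -0.75. For the difference of the effects it was 0 except without a low-count filter, where 1 member passed (RRM2, log2 difference 0.58, adjusted p = 0.0408), and at an unadjusted p below 0.05, where 1 did (POLA2). No named member's log2 fold change reversed in either comparison.

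Libraries with the same replicate number did not deviate together (correlations from -0.173 to 0.156), so the numbers were not taken as pairs. With the replicate number as a block, 0 members passed with SW-682 (46 had an unadjusted p below 0.05), 44 with pTEADi and 0 for the difference.

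Members with few counts, such as GINS4, POLE2 and TIPIN, have wide errors, and with SW-682 TIPIN did not pass at -0.78 ± 0.31 (SE). With SW-682 errors were as wide in some members with more counts, such as MCM5 at -1.24 ± 0.34 (SE).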
